A study of Mus musculus with 24 samples.

Results

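The miRNAs described here are the 7 mature names that come from imprinted hairpins outside the large cluster on mouse chromosome 12, chosen by name from 1073 mature miRNA names listed in the series. They are both arms of miR-3099 (mmu-mir-3099-3p and mmu-mir-3099-5p), both arms of miR-296 (mmu-mir-296-3p and mmu-mir-296-5p), the 5p arm of miR-298 (mmu-mir-298-5p) and both arms of miR-335 (mmu-mir-335-5p and mmu-mir-335-3p). Reads were listed for 6 of the 7 names, since mmu-mir-3099-5p had none in any library. Small RNA was sequenced from exosome-enriched fractions (EEFs) of pooled whole hippocampi of male C57BL/6 mice (C57BL/6OlaHsd in the study's methods) aged 6 to 9 weeks, and every pool came from mice given a microinjection into the amygdala. Mice received either kainic acid (KA), 0.3 µg in 0.2 µl, which triggers status epilepticus, or PBS as the control, and tissue was taken 24 h or 2 weeks (2w) later. EEFs were prepared by ultracentrifugation (UC) or with a precipitation kit (ExoQuick), in 8 groups of 3 libraries, one for each combination of method, treatment and time. The UC and kit pools were separate and the kit pools held fewer hippocampi, so the preparation and the pool cannot be told apart. KA-injected mice also received midazolam to end the seizures, and the fractions were treated with RNase A before the RNA was extracted.

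Genomic imprinting means that a gene is expressed mainly from the copy inherited from 1 parent. A miRNA that lies inside such a gene can share its parent-of-origin expression. Each hairpin precursor is cut into a short duplex whose strands are the 5p and 3p arms, one of which is usually kept in the Argonaute protein while the other is lost, and bases 2 to 8 of the kept arm, the seed, direct it to its target mRNAs. Adenosines in double-stranded hairpins can be deaminated to inosine by ADAR enzymes, and inosine is read as G in sequencing.

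The hairpins lie at 3 imprinted loci in the GRCm38 assembly. Mir3099 spans chr7:6803587-6803670 on the plus strand, within an intron of both transcripts of Usp29 annotated there, a ubiquitin-specific protease gene of the Peg3 region. Mir335 spans chr6:30741299-30741396 on the plus strand, within an intron of all 7 Mest transcripts annotated there, a paternally expressed gene. Mir296 (chr2:174267047-174267125) and Mir298 (chr2:174267504-174267585) lie on the minus strand with 378 bases between them, in no annotated host gene, 13652 bases from the nearest end of the antisense transcript Nespas on the same strand and 16735 bases from Gnas on the opposite strand.

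The mature sequences, taken from RefSeq on GRCm38.p6 for all 7 names, are shown 5′ to 3′ with the seed in capitals, because the seed carries the main sequence change found in these reads.
miR-3099-3p: uAGGCUAGagagagguugggga
miR-3099-5p: cCAGCUUCcuuccagcccuug
miR-296-3p: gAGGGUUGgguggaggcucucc
miR-296-5p: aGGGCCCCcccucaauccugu
miR-298-5p: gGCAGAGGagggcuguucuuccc
miR-335-5p: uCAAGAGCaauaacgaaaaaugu
miR-335-3p: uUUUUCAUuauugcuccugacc
The 7 seeds were all different, and none of them was shared with another mature mouse miRNA in the RefSeq table. In base composition the names fell at opposite ends. G and C made up 68.2% of miR-296-3p, 66.7% of miR-296-5p, 65.2% of miR-298-5p, 61.9% of miR-3099-5p and 54.5% of miR-3099-3p, but 36.4% of miR-335-3p and 30.4% of miR-335-5p.

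The depth was low and differed by method. UC libraries held 85436 to 169639 miRNA reads and kit libraries 154884 to 676726, so 3 reads, taken as the upper limit that a count of 0 allows, equalled 17.1 to 33.9 CPM in a UC library and 4.78 to 17.6 CPM in a kit library. CPM, the usual read count scaled to a common library size, are computed here on library totals adjusted by TMM factors. Brain miRNAs (miR-124-3p, miR-9-5p and miR-128-3p) were read in all 24 libraries, at a summed 29535 to 48348 CPM with UC and 38836 to 68295 CPM with the kit. The liver marker miR-122-5p had no reads with UC and at most 5.15 CPM with the kit. The members took 0.396% to 1.01% of the reads of a UC library and 0.226% to 0.452% of those of a kit library. Intervals and upper limits given for shares cover counting error only.

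The largest differences among these miRNAs were between the preparation methods. miR-296-3p and miR-298-5p were higher in UC fractions, miR-335-5p and miR-335-3p were higher in kit fractions, and the difference in the level of miR-3099-3p did not pass the test. In edgeR's quasi-likelihood test over 397 miRNAs, with treatment and time in the model, 4 of the 5 members tested were called at an adjusted p under 0.05, 2 in each direction. That share stands beside a background in which 66.2% of all tested miRNAs were called, 33.2% as higher with the kit and 33% as higher with UC. limma and DESeq2 also called 4 members each, beside 271 and 264 of all 397 miRNAs. edgeR with a replicate block for each method called 3 members, but there the method difference is that of the replicate 1 libraries. Over all alternatives tried, 163 to 307 of all miRNAs were called between the methods. Fewer vesicles that carry a miRNA and fewer copies per vesicle cannot be told apart in these bulk fractions. The paper detected the non-exosomal marker calretinin with both methods and the mitochondrial marker porin with UC only. It also found the exosome marker Flotillin1 more enriched with UC. The part of non-vesicle material in the differences was not tested.

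miR-296-3p, the more abundant arm of its hairpin, had 34 to 97 reads in the 12 UC libraries and 5 to 23 in the 12 kit libraries. Its level was 248, 473 and 748 CPM (lowest, median and highest) with UC and 13.5, 42.6 and 52.8 CPM with the kit. Every kit library was below every UC library, but how many of all 397 tested miRNAs separated in this way was not counted. The difference, kit minus UC, was -3.58 on the log2 scale (SE 0.22, edgeR adjusted p = 7.14e-16), a 12.0-fold lower level with the kit. Of the 397 miRNAs tested it had the second lowest kit-minus-UC value, at rank 2 from the bottom.

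miR-298-5p, its neighbour on the chromosome, was the most abundant of the 7 with UC, where it ranked 30 of 859 listed miRNAs by mean CPM. It had 2813, 5706 and 7915 CPM (lowest, median and highest) with UC and 842, 974 and 1643 CPM with the kit. Again the methods did not overlap, a separation that was not counted over all tested miRNAs. The difference was -2.15 on the log2 scale (SE 0.18, edgeR adjusted p = 2.78e-12), or 4.45-fold lower with the kit, where it ranked 72 of 961.

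The drop was not the same size for the neighbours. Reads of miR-298-5p outnumbered those of miR-296-3p by a median of 10.6 to 1 in UC libraries (range 8.21 to 14.2) and by 29.0 to 1 in kit libraries (range 18 to 62.4). The ranges of the ratio did not overlap, which is the same pattern as the difference between their log2 values and was not tested separately. In the kit libraries the ratio rests on no more than 23 reads of miR-296-3p.

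**Figure D1:**
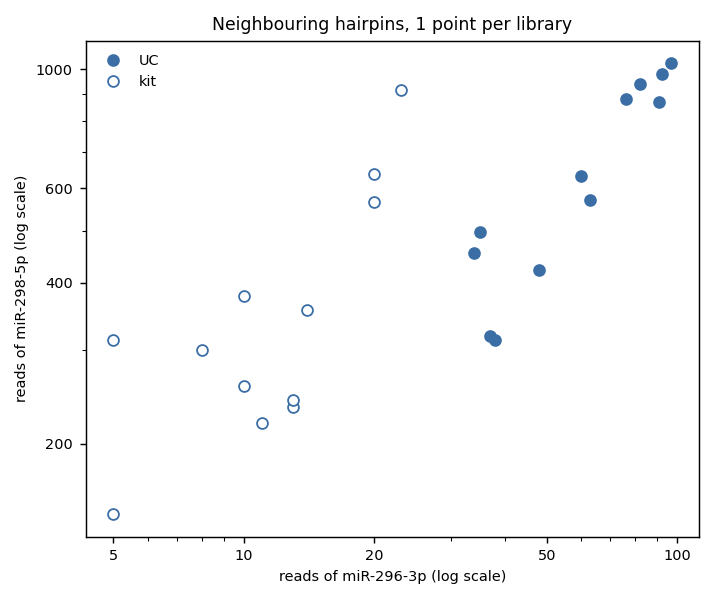
Reads of miR-298-5p (y axis, log scale) against reads of miR-296-3p (x axis, log scale) in each of the 24 libraries, with filled points for UC and open points for the kit. The UC points lie along a band at 8.21 to 14.2 reads of miR-298-5p per read of miR-296-3p, and the kit points lie to the left of them at 18 to 62.4.

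miR-335-5p, processed from the Mest intron, moved the other way. It had 9 to 37 reads and 65.8, 166 and 283 CPM (lowest, median and highest) in UC libraries, against 32 to 621 reads and 188, 705 and 1084 CPM in kit libraries. Of the kit libraries, 1 fell within the UC range, the Kit control 24h library of replicate 2 at 188 CPM. The difference was 2.19 on the log2 scale (SE 0.22, edgeR adjusted p = 1.32e-10), or 4.55-fold higher with the kit. The miRNA ranked 158 of 859 by mean level with UC and 88 of 961 with the kit.

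miR-335-3p, the opposite arm, was close to the limit of detection in UC fractions. It had 8 reads in all 12 UC libraries together, at most 2 in any of them and none in 6, and 95 reads in the kit libraries, 1 to 15 in each. The fitted difference was 2.18 on the log2 scale (SE 0.54, edgeR adjusted p = 0.000613), and every UC level was below the 3-read limit of its library. With a replicate block for each method, the method difference is that of the replicate 1 libraries. The value was then 1.96 (SE 0.90, edgeR adjusted p = 0.0679), and 3 of the 5 members were called. Both arms of the hairpin therefore gave nearly the same fitted difference, with the value of the 3p arm resting on few reads.

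miR-3099-3p, from the Usp29 intron, was similar by either method. It had 1149, 1721 and 2426 CPM (lowest, median and highest) with UC and 895, 1364 and 2374 CPM with the kit. The difference was -0.17 on the log2 scale (SE 0.16, edgeR adjusted p = 0.356), and 2 standard errors either way ran from -0.49 to 0.15. Under an alternative scaling, by the reads of miR-92b-3p and miR-25-3p, the median of all tested miRNAs shifted by -0.43 and the value of miR-3099-3p was -0.71 (edgeR adjusted p = 0.00503). The directions of the other 4 were the same under that scaling.

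**Figure D2:**
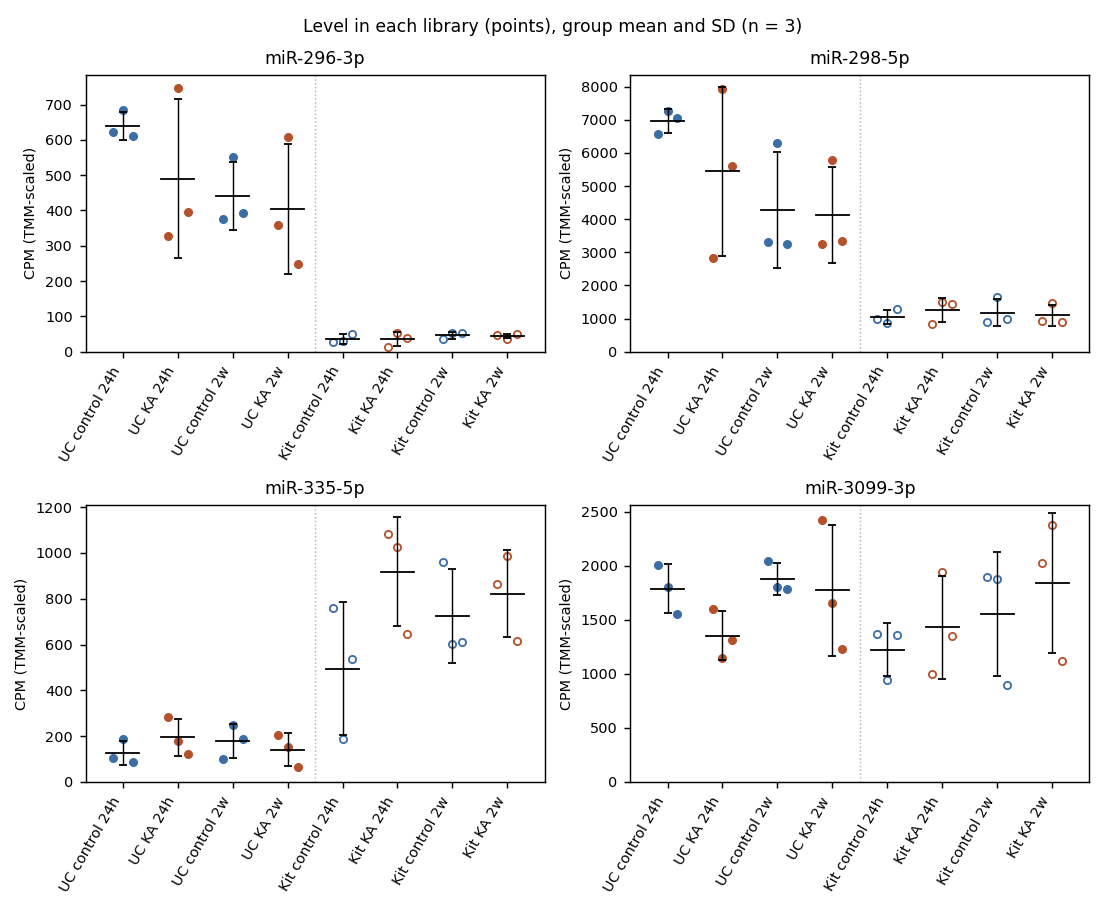
Level (y axis, TMM-scaled CPM from 0) of 4 miRNAs in each library, by group on the x axis, with filled points for UC, open points for the kit, blue for control and red for KA. The horizontal line is the group mean and the bar the SD of 3 libraries. miR-296-3p and miR-298-5p are lower in every kit library than in every UC library, miR-335-5p is higher in all kit libraries but 1, and miR-3099-3p overlaps. Such separation was not counted over all tested miRNAs.

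The other imprinted miRNAs of the list used for comparison, almost all from the chromosome 12 cluster, were also split between the methods. Of 67 tested, 26 were called higher with the kit and 27 higher with UC, and their median difference was 0.03 on the log2 scale beside -0.02 for all tested miRNAs. Over the 359 tested miRNAs with a RefSeq sequence, 90.4% of those tested, the share of G and C correlated negatively with the kit-minus-UC difference (Spearman rho -0.56, Pearson r -0.55, a description across miRNAs measured in the same 24 libraries). The median difference was 1.11 for the 59 miRNAs with less than 40% G and C, and -1.19 for the 70 with 60% or more. Among miRNAs within 3 percentage points of its own G and C share, miR-296-3p was lower than all 25 (their median -1.19, range -2.68 to 1.38). miR-298-5p was higher than 5 of 34, whose median was -1.09. miR-335-5p was higher than 12 of 13, whose median was 0.50, and miR-335-3p was higher than 40 of 41, whose median was 1.04. The part of base composition in the differences was not tested.

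**Figure D3:**
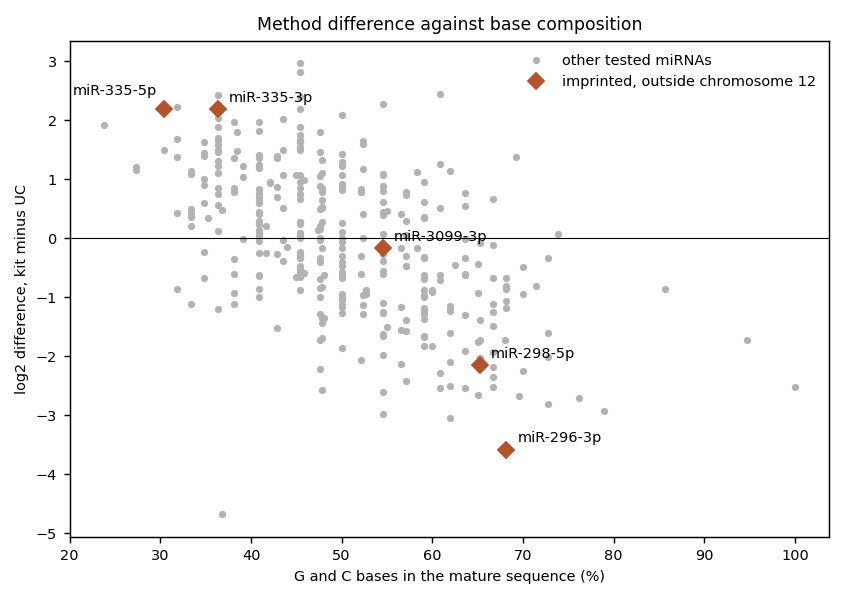
Difference between the methods (y axis, log2, kit minus UC) against the share of G and C in the mature sequence (x axis, percent) for tested miRNAs with a RefSeq sequence, with the 5 tested members as red diamonds. miR-335-5p and miR-335-3p lie at the upper left, miR-3099-3p near 0, and miR-298-5p and miR-296-3p at the lower right, the last at -3.58.

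Marker miRNAs of cell types differed by method as well. The oligodendrocyte pair miR-219a-2-3p and miR-338-3p, both read with each method, summed to 6605 to 10245 CPM with UC and 1529 to 2271 CPM with the kit. The endothelial pair, both arms of miR-126a, summed to 241 to 541 CPM with UC and 2237 to 3332 CPM with the kit. The 5 microglia and leukocyte markers, all with reads by each method, summed to 1654 to 6621 CPM with UC and 653 to 8217 CPM with the kit. The 2 choroid plexus markers summed to 855 to 2363 CPM with UC and 1131 to 3009 CPM with the kit. The 3 red blood cell markers reached at most 11.3 CPM with UC, where miR-486a-5p was at 0, and 201 CPM with the kit. The 3 muscle markers reached at most 10.4 and 21.0 CPM, with miR-1a-3p and miR-206-3p at 0 in all libraries. The part of these cell types in the differences of the imprinted miRNAs was not tested.

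Arm use was strongly one-sided for every hairpin. For miR-3099, 0 of 8791 reads came from the 5p arm, which allows a 5p share of up to 0.0341% over the 24 libraries. For miR-335, 3268 of 3371 reads came from the 5p arm (96.9%, 95% Wilson interval 96.3% to 97.5%), and libraries with at least 10 reads ranged from 90.9% to 100% with UC and from 91.4% to 99.6% with the kit. The difference between the methods was -1.31 percentage points (two-sided exact permutation within treatment and time, p = 0.312, n = 12 kit and 11 UC libraries, adjusted p = 0.623 over 8 tests). For miR-298, whose 3p arm is outside the chosen names, the 5p share was 99.8% in UC and 99.7% in kit fractions.

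The 5p arm of miR-296 had 2 of 755 reads with UC (0.265%, 95% Wilson interval 0.0727% to 0.961%) and 9 of 161 with the kit (5.59%, 95% Wilson interval 2.97% to 10.3%). By library, the 5p share was 0% in 10 of 12 UC libraries and at most 2.04%, and 0% to 13.3% in the 9 kit libraries with at least 10 reads. The mean difference within treatment and time was 4.46 percentage points and did not pass the adjustment (two-sided exact permutation p = 0.0250, adjusted p = 0.200 over 8 tests, n = 9 kit and 12 UC libraries). With the reads of each method summed within treatment and time, the difference was 5.29 points (exact permutation, adjusted p = 0.00500). At 0 to 3 reads of miR-296-5p in a library, the share depends on single reads.

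The question the injections were designed for, how KA changes the miRNA content of EEFs, gave no call for any of the 7 names. In edgeR's test, 0 of 5 members tested with UC and 0 of 6 with the kit passed an adjusted p of 0.05 at either time. limma and DESeq2 called none either, beside at most 3 of all tested miRNAs in a comparison. The backgrounds were equally sparse, with 0.476% of tested miRNAs called with UC at 24 h, 0.952% with UC at 2w, and 0% with the kit at 24 h and 0% at 2w, where 24 and 14 of 520 miRNAs had an unadjusted p under 0.05 in edgeR. With the replicate number as a block at 2w, where same-numbered libraries deviated together, 0 members were called, beside 6 of all miRNAs with UC and 2 with the kit. At an unadjusted p under 0.05 there was 1 member in 1 of these 4 comparisons.

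That member was miR-335-5p in kit fractions at 24 h, with 761, 188 and 536 CPM in the control libraries and 1084, 1025 and 648 CPM in the KA libraries. The groups overlapped, since the KA library of replicate 3 was below the control library of replicate 1. The log2 difference, KA minus control, was 0.90 (SE 0.40, edgeR adjusted p = 0.838). In UC fractions at 24 h miR-335-5p had 104, 186 and 88.3 CPM in control and 283, 177 and 124 CPM in KA libraries, a log2 difference of 0.63 (SE 0.47, edgeR adjusted p = 1.00). At 2w the differences were -0.33 (SE 0.45) with UC and 0.12 (SE 0.40) with the kit.

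For miR-298-5p, KA minus control was -0.35 (SE 0.31) with UC at 24 h, -0.06 (SE 0.31) with UC at 2w, 0.28 (SE 0.33) with the kit at 24 h and -0.15 (SE 0.33) with the kit at 2w. The UC libraries at 24 h show the spread behind these values, with 6574, 7271 and 7060 CPM in control and 2813, 7915 and 5614 CPM in KA libraries. For miR-3099-3p the 4 values were -0.39 (SE 0.29), -0.09 (SE 0.29), 0.23 (SE 0.36) and 0.18 (SE 0.36) in the same order. Its UC libraries at 24 h had 2004, 1807 and 1558 CPM in control and 1601, 1149 and 1310 CPM after KA. For miR-296-3p they were -0.37 (SE 0.35), -0.13 (SE 0.36), -0.02 (SE 0.51) and -0.15 (SE 0.48). Over these 3 miRNAs and 4 comparisons, 2 standard errors either way stayed between -1.11 and 0.99. For miR-335-3p and miR-296-5p the standard errors were 0.70 to 1.58, wider than those of the other members. When libraries were rescaled by miR-92b-3p and miR-25-3p, the kit values at 24 h reversed to -0.24 for miR-298-5p and -0.27 for miR-3099-3p, with the median of all miRNAs shifted by -0.49. For UC at 2w the same rescaling shifted that median by -0.56 and left 0 of 420 miRNAs called, and the values there were -0.40 for miR-298-5p, -0.61 for miR-3099-3p and -0.48 for miR-296-3p, none called.

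**Figure D4:**
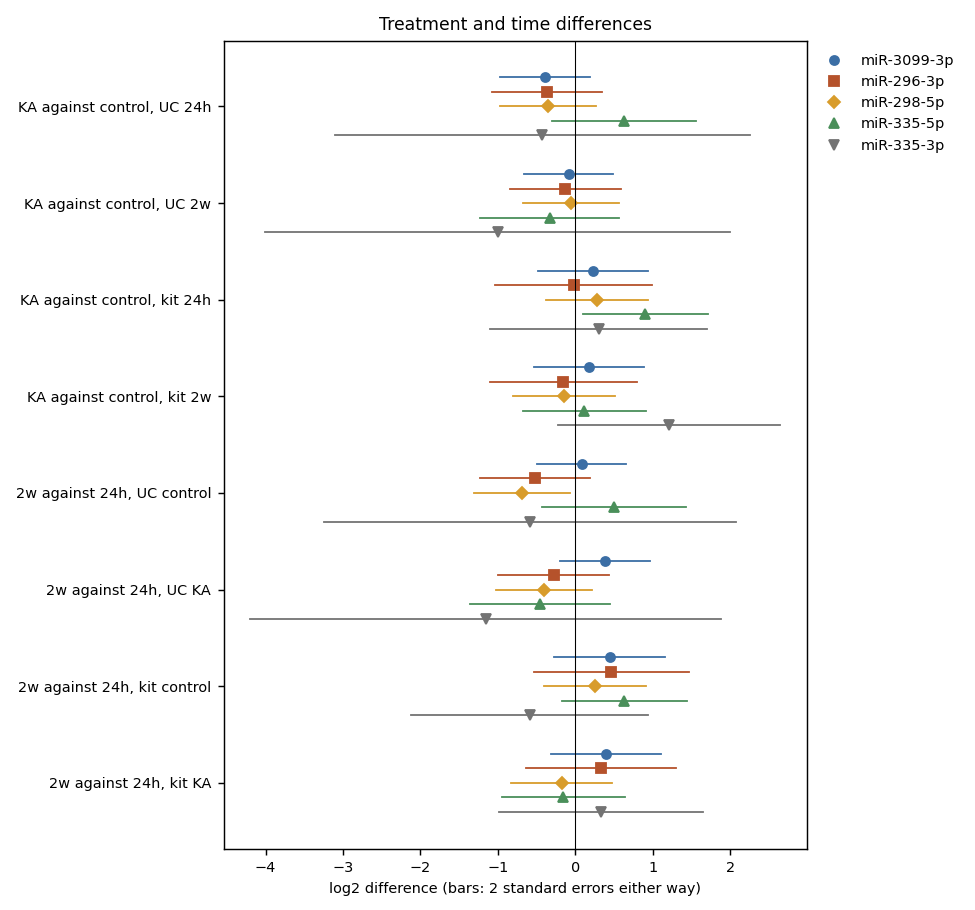
Log2 differences (x axis) of 5 members in the 4 KA-against-control and 4 2w-against-24h comparisons (y axis), with bars of 2 standard errors either way. Most bars cross 0, and those that do not belong to miR-335-5p after KA in kit fractions at 24 h, at 0.90, and miR-298-5p between the times in UC controls, at -0.69. Neither passed the adjusted threshold.

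No member was called between 2w and 24 h by edgeR, limma or DESeq2 in UC controls (background 0%, with 17 of 420 miRNAs at an unadjusted p under 0.05), UC KA (0.952%), kit controls (0%, with 19 of 520 at an unadjusted p under 0.05) or kit KA (0.192%), and 1 member had an unadjusted p under 0.05 in 1 of the 4. This was miR-298-5p in UC controls, with 6574, 7271 and 7060 CPM at 24 h and 3301, 6308 and 3235 CPM at 2w. All 3 libraries at 2w were below all 3 at 24 h. The log2 difference was -0.69 (SE 0.31, edgeR adjusted p = 0.969). miR-296-3p showed the same order in the same libraries, 623, 684 and 610 CPM at 24 h and 375, 551 and 394 CPM at 2w, with a log2 difference of -0.52 (SE 0.35, edgeR adjusted p = 0.992). How many of all 420 miRNAs separated in this way was not counted, so a shared pattern of the pair cannot be read from it. In kit controls the values of the pair were 0.26 (SE 0.33) and 0.47 (SE 0.50), and they reversed to -0.31 and -0.04 when rescaled by miR-92b-3p and miR-25-3p. In UC KA, where the replicate numbers also deviated together, the blocked model called 0 members and 9 of all miRNAs. Without a block, limma called at most 4 and DESeq2 at most 3 of all miRNAs in any comparison of the times.

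The KA difference itself was compared between times and between methods. edgeR called 0 members in any of the 4 interaction tests, as did limma and DESeq2, and no member had an unadjusted p under 0.05 in edgeR. The backgrounds were 0.476% for 2w minus 24 h with UC, 0% for 2w minus 24 h with the kit, 0% for kit minus UC at 24 h and 0% for kit minus UC at 2w. Of all miRNAs, limma called 0 in each of these tests and DESeq2 at most 1. For miR-335-5p the KA difference was lower at 2w than at 24 h by fits of -0.96 (SE 0.65) with UC and -0.79 (SE 0.57) with the kit, neither past the threshold (edgeR adjusted p = 0.99 and 0.987).

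Within groups, levels of the members varied with those of other miRNAs. Over the 24 libraries, after the mean of each group was removed, miR-298-5p correlated best with miR-378c (r = 0.88), miR-378a-3p (0.84) and miR-873a-5p (0.80) among 153 candidate miRNAs. miR-335-5p was closest to miR-369-3p (0.81), let-7e-5p (0.62) and miR-497a-5p (0.60), and miR-3099-3p to miR-423-5p (0.75), miR-485-5p (0.71) and miR-3085-3p (0.71). Some of these values differed by method, over 12 libraries each. For miR-335-5p, the value with let-7e-5p was 0.90 in UC and 0.34 in kit libraries, and with miR-497a-5p it was 0.27 and 0.86. For miR-3099-3p with miR-423-5p it was 0.43 and 0.87. Among the members, miR-3099-3p and miR-335-5p stood at 0.50, and miR-298-5p and miR-335-5p at 0.04. miR-3099-3p and miR-298-5p had -0.39 in UC and 0.63 in kit libraries. These values are descriptions over libraries that share depth and scaling, and miR-296-3p was left out because it had a mean below 20 reads in kit libraries.

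miR-3099-3p stood out by the sequence of its reads. Most of them carried G in place of A at base 7, within the seed, and a smaller share carried G at base 2. Positions are counted from 1 at the 5′ end of the mature miRNA, and a change is written with the reference base first, so the changes are A7G and A2G. The read forms are printed next with the changed base in capitals, to show where the changes fall.
A7G: uaggcuGgagagagguugggga
A2G: uGggcuagagagagguugggga
A2G and A7G: uGggcuGgagagagguugggga
The A7G form has AGGCUGG as its seed, which in the RefSeq table is shared with miR-3083b-5p, a miRNA with no reads listed here. The A2G form has GGGCUAG, shared with none, and the double form GGGCUGG, shared with miR-6940-5p, miR-762 and miR-7648-3p. The first 18 bases of each changed form occur in no mature or hairpin sequence of the table.

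A7G was present in 7596 of 8791 reads (86.4%, 95% Wilson interval 85.7% to 87.1%) and A2G in 522 (5.94%, 95% Wilson interval 5.46% to 6.45%). The rule used the study's thresholds, a minimum of 10 reads, an error rate of 0.01 and an FDR under 0.05, here within a library. By it, A7G passed in 24 of 24 libraries and A2G in 23. They were 2 of 13 A-to-G sites that passed in at least 2 libraries of a group over all miRNAs, and by pooled level they ranked 2 and 11 of the 13. The rule here was wider than the paper's, since it also counted changes listed at the 5′ end and did not filter miRNA genes. The paper counted internal changes only and kept bona fide miRNA genes. It reported fewer sites, with A7G but not A2G for this miRNA. Both adenosines are the middle base of a UAG triplet. The other 4 adenosines of the miRNA, at bases 9, 11, 13 and 22, lie in GAG or GAU triplets and had 1, 0, 1 and 0 reads with G among 8791. Whether G is present in the genomic DNA of these mice at either site was not tested.

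The share of A7G was high in every library, with 85.9%, 92.0% and 94.0% (lowest, median and highest) in UC fractions and 77.0%, 83.8% and 88.6% in kit fractions. The methods overlapped only between 85.9% and 88.6%. Kit minus UC was -6.88 percentage points (two-sided exact permutation within treatment and time, p = 8.75e-05, adjusted p = 0.000350 over 8 tests, n = 12 and 12 libraries). The share of A2G was 4.65%, 8.78% and 16.1% with UC and 2.38%, 4.92% and 5.86% with the kit. Kit minus UC was -4.30 points (two-sided exact permutation p = 6.25e-05, adjusted p = 0.000350, n = 12 and 12). Both changes were thus less frequent among kit reads, while the difference in its level did not pass the test.

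No difference by KA or time in either share passed the test. At 24 h the A7G share was 92.2%, 93.0% and 89.7% in UC control, 91.2%, 93.3% and 87.1% in UC KA, 81.9%, 77.0% and 84.0% in kit control and 82.1%, 83.7% and 85.0% in kit KA libraries. The groups of each pair overlapped, and KA minus control was 0.73 points (two-sided exact permutation within method, p = 0.655, adjusted p = 0.790, n = 6 and 6). At 2w it was -1.67 points (exact permutation p = 0.405, adjusted p = 0.648, n = 6 and 6), and between 2w and 24 h it was 1.41 points (exact permutation p = 0.235, adjusted p = 0.626, n = 12 and 12). For A2G the values in the same order were -1.67, -0.27 and -0.33 points (exact permutation, adjusted p = 0.648, 0.790 and 0.790).

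The changes occurred on the same molecules. Of 7596 reads with A7G, 514 also carried A2G (6.77%), against 8 of 1195 reads without A7G (0.669%). The share was higher among reads with A7G in 24 of 24 libraries, and with each method, at 9.72% against 1.64% with UC and 5.42% against 0.421% with the kit.

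**Figure D5:**
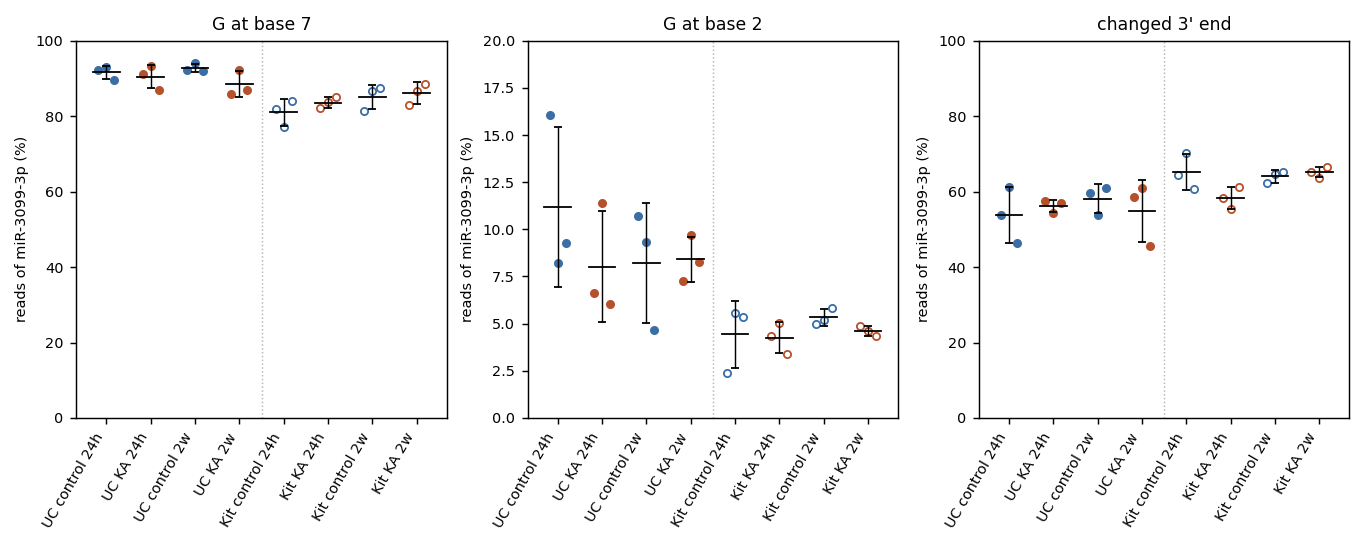
Share of miR-3099-3p reads (y axis, percent, from 0) with G at base 7, with G at base 2 (on a shorter axis) and with a changed 3′ end, in each library by group, with filled points for UC, open points for the kit, blue for control and red for KA. Lines are group means and bars the SD of 3 libraries. Most kit libraries lie lower than the UC libraries in the left and middle panels and higher in the right panel, with some overlap in each.

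The 3′ end of miR-3099-3p was changed in most reads too. A non-templated 3′ end, meaning 1 or more last bases of the read that do not match the hairpin, starting after the mature end or shortly before it, was listed for 5338 of 8791 reads (60.7%, 95% Wilson interval 59.7% to 61.7%). The hairpin continues after the last bases of the mature miRNA as uggggaUGGGGA, with the following hairpin bases in capitals, so the next templated base is U. Of the changed ends, 43.5% were a single A, 31.4% were 2 or more A, 11.6% mixed A and U, and 2.34% were a single U. The change began directly after the last mature base in 56.7% of these reads, 1 base before the last in 22.8% and 2 bases before it in 16.6%. Among miRNAs with at least 100 reads, miR-3099-3p ranked 16 of 208 by this share with UC and 19 of 279 with the kit, where the medians over miRNAs were 10.7% and 12.8%.

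Like the A-to-G sites, this share differed by method. It was 45.6%, 57.2% and 61.3% (lowest, median and highest) with UC and 55.5%, 64.0% and 70.2% with the kit. Kit minus UC was 7.36 points (two-sided exact permutation within treatment and time, p = 0.000150, adjusted p = 0.00270 over 18 tests, n = 12 and 12). Without the libraries of replicate 3 the difference was 5.57 points (exact permutation, adjusted p = 0.0525). KA minus control was -2.21 points at 24 h and -1.05 points at 2w (exact permutation within method, adjusted p = 0.855 and 1.00). Reads with A7G had a changed 3′ end in 61.4% of cases and reads without it in 56.5%, higher with A7G in 17 of 24 libraries.

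The other members had mostly unchanged ends. The 3′ share was 4.29% for miR-298-5p (534 of 12459 reads, 53.2% of them a single U), 5.41% for miR-296-3p (49 of 905), 4.85% for miR-335-3p (5 of 103), 1.16% for miR-335-5p (38 of 3268) and 0 of 11 for miR-296-5p. For miR-296-3p it was 3.59% of UC reads and 14.5% of kit reads, and the mean difference of 12.5 points within treatment and time did not pass the adjustment (two-sided exact permutation p = 0.0156, adjusted p = 0.140, n = 9 kit and 12 UC libraries). In that mean difference each combination of treatment and time had equal weight. The kit controls at 24 h entered with 1 library, at 35.7% (5 of 14 reads), against a mean of 3.02% in UC controls at 24 h. For miR-298-5p the difference was 1.54 points and for miR-335-5p 0.430 points (exact permutation, adjusted p = 0.674 and 0.962), and the latter passed without the libraries of replicate 1 (1.44 points, exact permutation adjusted p = 0.0247).

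A-to-G reads were rare outside miR-3099-3p. In miR-335-5p, A4G was found in 48 of 3268 reads (1.47%) and A3G in 16 (0.490%), and neither passed the rule in any library. A4G made up 46 of 3020 kit reads (1.52%) and 2 of 248 UC reads (0.806%), a difference that was not tested. In miR-298-5p, A4G had 6 and A9G 2 of 12459 reads. No A-to-G read was listed for miR-296-3p, miR-296-5p or miR-335-3p, which for the 905 reads of miR-296-3p allows a share of up to 0.331%.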

How the data were processed

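Small RNA libraries (TruSeq, MiSeq) of 24 EEF samples were analyzed. The deposited values are whole-number counts of reads per mature miRNA and read form, which the authors made with the Chimira web server by trimming adapters and matching reads to miRBase hairpins, and they are not normalized. The mismatch allowance and the treatment of reads matching several hairpins are not given in the sources used here.

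Counts were scaled with TMM factors and miRNAs with CPM over 1 in at least 6 libraries were tested with edgeR 4.0.16 (R 4.3.3), with limma 3.58.1 and DESeq2 1.42.0 as alternatives. Adjusted p-values are Benjamini-Hochberg values over all miRNAs tested, with a threshold of 0.05. Shares were compared by two-sided exact permutation within strata, over libraries with at least 10 reads, and adjusted over all tests of 1 readout. Intervals are 95% Wilson intervals, and a count of 0 was given a limit of 3 reads. Reads carry no molecular identifiers, so intervals and limits cover counting error only. Scripts were tested on simulated data.

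Groups came from the sample labels. The labels do not pair or trace pools, so p-values measure the spread between these libraries. All 7 names were described in every comparison whatever their result, and the most similar miRNAs were the 3 with the highest correlation of log2 CPM (prior count 2). The members and lists were chosen with earlier results of these data known. Other scalings, filters, tools, minimum reads, single methods, a replicate block and leaving out each replicate were tried. Replicate numbers carry no stated pairing. Deviations of same-numbered libraries from their group means correlated by more than 0.1 in all 3 pairs for KA against control at 2w with UC (lowest 0.11) and with the kit (0.32) and for 2w against 24 h in UC KA (0.13), and not in the other comparisons, including kit against UC.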

Additional observations from a re-analysis of the deposited data

Results flagged for a closer look

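The share of miR-335-5p reads with a changed 3′ end moved in opposite directions between 24 h and 2w in the kit groups. After KA its mean was 0.704% at 24 h and 1.44% at 2w, with all 3 libraries at 2w above all 3 at 24 h, and in controls it was 2.51% and 1.01%, with all 3 at 2w below, a gap of 2.24 percentage points between the differences. The difference was not tested, and it rests on 1 to 7 changed reads in a library.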

How the results depend on the processing

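Of 1482 alternative values, 1347 were classed as unchanged, among them 232 counts of members called and 185 counts of all miRNAs called, which have no direction. Direction and side of the threshold were kept by 734 log2 differences, 99 changed 3′ end shares, 44 5p arm shares and 53 A-to-G shares. The sign reversed in 41, 24, 11 and 7, in the same order. The number of members called was within 1.5 times its main value under all 232 alternatives for it. For kit against UC, with 4 members called, a change by 1 member does not exceed that limit. Scaling by miR-92b-3p and miR-25-3p called miR-3099-3p between the methods and shifted the median of all miRNAs by -0.56 for KA with UC at 2w, where 0 rather than 4 miRNAs were called, by -0.49 for KA with the kit at 24 h, by -0.61 for the times in UC KA and by -0.46 for the times in kit controls. In the last 3 comparisons it gave, for KA with the kit at 24 h, -0.27 for miR-3099-3p, -0.24 for miR-298-5p and -0.24 for miR-335-3p, for the times in UC KA -0.076 for miR-3099-3p, and for the times in kit controls -0.058 for miR-3099-3p, -0.037 for miR-296-3p and -0.31 for miR-298-5p, all reversed in sign and none called. With reads summed, the 5p share of miR-296 differed between the methods by 5.29 points, past the threshold. The number of all miRNAs called between the methods ranged from 163, with a minimum of 10 counts in 6 libraries, to 307. The cause of these changes was not tested. With reads summed over libraries, the 5p arm share changed sign for miR-296, KA at 24 h (1.21 points) and miR-335, kit against UC (0.270 points). With reads summed over libraries, the changed 3′ end share changed sign for miR-296-3p, KA at 2w (-1.55 points) and miR-335-5p, KA at 2w (0.242 points). With a minimum of 50 reads per library, the 5p arm share changed sign for miR-296, KA at 2w (0.781 points) and miR-296, 2w against 24 h (0.391 points). With a minimum of 50 reads per library, the changed 3′ end share changed sign for miR-296-3p, KA at 24 h (1.10 points), miR-296-3p, 2w against 24 h (0.0888 points), miR-335-5p, KA at 2w (0.435 points) and miR-335-5p, 2w against 24 h (-0.227 points). In UC libraries alone, the 5p arm share changed sign for miR-296, 2w against 24 h (0.601 points) and miR-335, KA at 2w (0.358 points). In UC libraries alone, the A-to-G share changed sign for A2G, KA at 2w (0.191 points), A7G, KA at 24 h (-1.14 points) and A7G, 2w against 24 h (-0.491 points). In UC libraries alone, the changed 3′ end share changed sign for miR-3099-3p, KA at 24 h (2.37 points), miR-296-3p, KA at 24 h (2.01 points), miR-296-3p, 2w against 24 h (0.121 points), miR-298-5p, KA at 24 h (1.05 points) and miR-298-5p, KA at 2w (-0.142 points). In kit libraries alone, the A-to-G share changed sign for A2G, 2w against 24 h (0.637 points) and A7G, KA at 2w (0.993 points). In kit libraries alone, the changed 3′ end share changed sign for miR-3099-3p, KA at 2w (1.04 points), miR-296-3p, KA at 2w (-4.59 points), miR-335-5p, KA at 2w (0.435 points) and miR-335-5p, 2w against 24 h (-0.381 points).

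Same-numbered libraries were not paired by the labels, and their deviations from the group means correlated by more than 0.1 in 10 of 18 pairs with UC, 12 of 18 with the kit and 6 of 12 across methods, and the mean correlations were 0.09, 0.14 and 0.08. Among differently numbered libraries the counts were 3 of 36, 9 of 36 and 4 of 24 in the same order, and the means -0.05, -0.07 and -0.04. With the replicate block, where the method difference is that of the replicate 1 libraries, miR-335-3p differed between the methods by 1.96 (edgeR adjusted p = 0.0679). The 5p share of miR-296 differed between the times by 0.857 points with the block, reversed in sign. The block changed no other call of a member.

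When replicates were left out, the following values changed sign or call. For shares, all libraries of 1 replicate number were left out together, and for log2 differences only 1 library at a time. The 5p arm share of miR-296 ran from -3.05 to 0.450 for 2w against 24 h and -3.45 to 0.922 for KA at 2w. The 5p arm share of miR-335 ran from -4.13 to 0.464 for KA at 2w and -2.69 to 0.744 for kit against UC. The A-to-G share of A2G ran from -0.944 to 0.476 for KA at 2w. The A-to-G share of A7G ran from -0.634 to 1.51 for KA at 24 h. The changed 3′ end share of miR-296-3p ran from -4.66 to 4.18 for 2w against 24 h, -14.2 to 2.24 for KA at 24 h and -6.24 to 4.80 for KA at 2w. The changed 3′ end share of miR-298-5p ran from -2.56 to 1.55 for KA at 24 h. The changed 3′ end share of miR-3099-3p ran from -6.04 to 2.09 for KA at 24 h, -3.11 to 2.01 for KA at 2w and 5.57 to 8.46 for kit against UC. The changed 3′ end share of miR-335-5p ran from -0.362 to 1.56 for 2w against 24 h, -1.05 to 0.104 for KA at 2w and -0.318 to 1.44 for kit against UC. The log2 difference of miR-296-3p ran from -0.62 to 0.25 for 2w against 24 h in UC KA, -0.059 to 0.84 for 2w against 24 h in kit KA, -0.48 to 0.088 for KA with UC at 2w, -0.53 to 0.36 for KA with the kit at 24 h and -0.25 to 0.028 for KA with the kit at 2w. The log2 difference of miR-296-5p ran from -0.24 to 0.013 for 2w against 24 h in kit control and -0.024 to 0.15 for KA with the kit at 24 h. With all libraries these values were -0.67 and -0.40, outside the ranges. This miRNA had reads in 6 kit libraries, the minimum of the filter, so it was not tested when 1 of those was left out. The log2 difference of miR-298-5p ran from -0.71 to 0.054 for 2w against 24 h in UC KA, -0.057 to 0.35 for 2w against 24 h in kit control, -0.34 to 0.34 for KA with UC at 2w and -0.38 to 0.15 for KA with the kit at 2w. The log2 difference of miR-3099-3p ran from -0.016 to 0.16 for 2w against 24 h in UC control, -0.36 to 0.089 for KA with UC at 2w, -0.083 to 0.42 for KA with the kit at 24 h and -0.068 to 0.46 for KA with the kit at 2w. The log2 difference of miR-335-3p ran from -0.019 to 0.95 for 2w against 24 h in kit KA, -1.20 to 0.43 for 2w against 24 h in kit control and -0.21 to 1.31 for KA with the kit at 24 h. The log2 difference of miR-335-5p ran from -0.33 to 0.053 for 2w against 24 h in kit KA, -0.67 to 0.027 for KA with UC at 2w and -0.021 to 0.44 for KA with the kit at 2w. Without replicate 1 the changed 3′ end share of miR-335-5p passed the threshold between the methods (1.44 points, exact permutation adjusted p = 0.0247). Depth limits the low members, since miR-296-5p had 11 reads in all and miR-335-3p 103.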
